A study of Mus musculus with 3 samples.

Results

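The transcripts of 10 claudin and epithelial adhesion genes were followed in crypt, adenoma and villus cells of the mouse small intestine. They were taken as a named list from the 27998 genes counted. The list holds 5 claudins (*Cldn2*, *Cldn3*, *Cldn4*, *Cldn7* and *Cldn15*), 2 cadherins (*Cdh1* and *Cdh17*), *Epcam*, *Ocln* and *Tjp1*. All 10 had unique molecular identifiers (UMIs) in each library.

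Single EpCAM-positive epithelial cells from 3 genotypes were sequenced, with 1 library from each. All mice were labelled C57BL/6, and all of them, WT included, received 2 doses of tamoxifen of 2 mg at an age of 7 to 8 weeks. The floxed Lef1 line came from a mixed background and had been backcrossed. WT cells were taken on day 21 after tamoxifen. *LApc* (Lgr5-CreERT2;Apc fl/fl) was taken on day 29. *LApcL* carries Lef1 fl/fl beside these alleles and was taken on day 21. The Cre recombinase is driven from the *Lgr5* locus, so recombination starts in intestinal stem cells and passes to their progeny. With 1 library a genotype, no value has a replicate, and genotype cannot be told apart from mouse, library and, for *LApc*, day. Sorting was on EpCAM protein, so *Epcam* RNA above 0 in these cells was set by the gate.

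Neighbouring epithelial cells are held together by tight junctions, adherens junctions and desmosomes. Claudins form the strands of the tight junction and set which ions pass between cells: claudin-2 and claudin-15 form cation pores and claudin-4 is counted among the sealing members. Occludin is a further strand protein, and ZO-1, the product of *Tjp1*, ties the strands to actin. E-cadherin, encoded by *Cdh1*, carries the adherens junction, *Cdh17* encodes the gut cadherin LI-cadherin, and EpCAM binds claudin-7 at the lateral membrane.

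The libraries held 79696291 to 191509615 UMIs, and 10162 (WT), 9610 (*LApc*) and 14410 (*LApcL*) cells were kept. Crypt cells were the Wnt/TA-like cells outside adenoma-enriched subclusters (3061, 2241 and 1200 cells). Adenoma cells were the Wnt/TA-like cells of 5 subclusters in which WT held at most 1.25% at equal library weight, against 21.7% or more in every other subcluster (1321 cells in *LApc* and 9482 in *LApcL*). Villus cells were the enterocyte-like cells (2805, 3573 and 1735). None of the 10 genes, nor any gene of the 7 companion lists below, was used to cluster the cells. Levels are given as CPM, the UMIs of a gene scaled by all UMIs of the summed class. *Lef1* in adenoma cells stood at 21.4 CPM in *LApc* and 3.58 CPM in *LApcL*. *Apc* was not lower in crypt cells of the libraries labelled Apc fl/fl (22.6 and 22.2 CPM) than in WT (19.1 CPM), and 3′ counting does not show a deleted exon. Between 214 and 318 cell barcodes were shared by any pair of libraries. Crypt cells include a shallow subcluster, number 8, led by *Hbb-bs*, *Hba-a1*, *Zg16*, *Sct* and *Fabp6*, which are haemoglobin genes and genes of goblet cells, enteroendocrine cells and ileal enterocytes. It held 183 of the crypt cells in *LApc*, 44 in WT and 3 in *LApcL*. Enterocyte markers summed to 28909, 48438 and 30607 CPM in villus cells and to at most 4605 CPM in crypt cells. Adenoma transcripts summed to 1495 CPM (*LApc*) and 932 CPM (*LApcL*) in adenoma cells and to 11.1 CPM in WT crypt cells, but to 90.8 CPM in crypt and 103 CPM in villus cells of *LApcL*.

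*Cldn3* and *Cldn4* are neighbours on chromosome 5 and are transcribed away from each other, with 39279 bases between them in the GENCODE annotation of GRCm38. *Cldn3* spans chr5:134986214-134987472 on the plus strand and *Cldn4* spans chr5:134945119-134946934 on the minus strand. *Cldn15* lies on the plus strand of the same chromosome at chr5:136966616-136975858. The 250 bases before the RefSeq start of these genes are shown because *Cldn4* and *Cldn15* moved in opposite directions in adenoma cells while *Cldn3* stayed within 1.5-fold. They are on GRCm38.p6, written 5′ to 3′ along the gene, and the windows are chr5:134946935-134947184 (*Cldn4*), chr5:134985964-134986213 (*Cldn3*) and chr5:136967619-136967868 (*Cldn15*). Capitals mark the letters GGGCGG, the GC box, on either strand.
Cldn4: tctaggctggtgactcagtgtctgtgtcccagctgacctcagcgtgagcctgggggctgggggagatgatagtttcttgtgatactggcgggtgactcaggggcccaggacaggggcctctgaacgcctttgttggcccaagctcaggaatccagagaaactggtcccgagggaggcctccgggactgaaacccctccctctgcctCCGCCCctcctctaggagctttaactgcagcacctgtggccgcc
Cldn3: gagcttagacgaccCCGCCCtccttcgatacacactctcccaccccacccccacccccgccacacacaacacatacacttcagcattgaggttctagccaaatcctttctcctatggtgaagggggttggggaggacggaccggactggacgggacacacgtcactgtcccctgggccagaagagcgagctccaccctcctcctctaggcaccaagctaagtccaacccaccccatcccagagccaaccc
Cldn15: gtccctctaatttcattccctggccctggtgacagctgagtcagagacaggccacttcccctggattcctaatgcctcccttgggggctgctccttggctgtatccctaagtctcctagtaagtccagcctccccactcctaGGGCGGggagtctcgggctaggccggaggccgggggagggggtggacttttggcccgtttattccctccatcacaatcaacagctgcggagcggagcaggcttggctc
RefSeq promoters were held for 8 of the 10 genes, in 10 windows, with more than 1 window for *Cldn7* and *Ocln*. Each of the 3 windows shown held 1 GC box. Of the 8 genes, 7 had a GC box in at least 1 window, and 1 *Cldn7* window held none. Over all genes, 32.7% of the 32851 promoter windows of this length held a GC box, a share of windows and not of genes. The letters CTTTGA, 1 form of the core bound by Tcf/Lef factors, were in none of the 8 genes on either strand and in 13.8% of all windows. Other forms of this core were not searched for, and the *Cldn4* window shown holds the letters CTTTGT. The letters TTTATG, of the kind bound by caudal-type factors, were in *Cldn2* and *Epcam* and in 10.8% of all windows. A match is a run of letters and says nothing of binding.

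*Cldn4* had the widest range of the 10 genes over the 8 sums of a class and library. It stood at 4.68 CPM in WT crypt cells (95% exact Poisson interval 3.98 to 5.45), 15.1 CPM in *LApc* (13.2 to 17.1) and 17.4 CPM in *LApcL* (15.1 to 20). In adenoma cells it stood at 446 CPM in *LApc* (434 to 460) and 168 CPM in *LApcL* (165 to 170). In villus cells it stood at 13.2 CPM (WT), 43.5 CPM (*LApc*) and 57.8 CPM (*LApcL*). Adenoma cells were thus above crypt and villus cells of every library, and no interval of theirs overlapped any other. Of the 236 *Cldn4* UMIs of *LApc* crypt cells, 76 came from subcluster 8. Intervals throughout are for counting error alone and leave out any difference between mice.

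*Cldn15*, a pore-forming claudin, was instead lowest in adenoma cells. In crypt cells it stood at 221 CPM (WT), 178 CPM (*LApc*) and 153 CPM (*LApcL*). In adenoma cells it stood at 23.9 CPM in *LApc* (21.0 to 27.1) and 53.5 CPM in *LApcL* (52.1 to 54.8). In villus cells it stood at 297, 243 and 208 CPM in WT, *LApc* and *LApcL*. In both crypt and villus cells the order of the libraries was the same, WT above *LApc* above *LApcL*, whereas in adenoma cells *LApcL* was above *LApc*.

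*Cldn2*, the cation pore of the crypt, stood at 72.0 CPM (69.2 to 74.8) in WT crypt cells, 100 CPM (95.2 to 105) in *LApc* and 106 CPM (100 to 112) in *LApcL*, where the intervals of the last 2 overlapped. In adenoma cells it stood at 89.0 CPM (*LApc*) and 131 CPM (*LApcL*). In villus cells it stood at 43.4, 35.6 and 51.4 CPM, below the crypt and adenoma cells of the same library.

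The levels of the other genes over the same sums follow, of which *Cdh17* spanned 115 to 550 CPM. *Cldn3* stood at 428, 390 and 396 CPM in crypt cells of WT, *LApc* and *LApcL*, at 471 and 482 CPM in adenoma cells of the last 2, and at 785, 561 and 573 CPM in villus cells. *Cldn7*, the partner of EpCAM, stood at 1177, 945 and 1033 CPM in crypt cells, 781 and 992 CPM in adenoma cells and 1501, 1257 and 1393 CPM in villus cells. *Epcam* itself stood at 1721, 1490 and 1449 CPM in crypt cells, 2027 and 1665 CPM in adenoma cells and 2029, 1725 and 1931 CPM in villus cells. Among the crypt, adenoma and villus cells of *LApc*, adenoma cells were thus the highest for *Epcam* and the lowest for *Cldn7*. *Cdh17* stood at 228, 228 and 158 CPM in crypt cells, 128 and 115 CPM in adenoma cells and 550, 538 and 447 CPM in villus cells. *Tjp1* stood at 23.0, 25 and 20.7 CPM in crypt cells, 45.0 and 40.6 CPM in adenoma cells and 39.5, 39.4 and 37.5 CPM in villus cells, so that adenoma and villus cells were alike above crypt cells. *Cdh1* ranged from 164 to 221 CPM and *Ocln* from 38.9 to 54.5 CPM over the 8 sums.

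**Figure D1:**
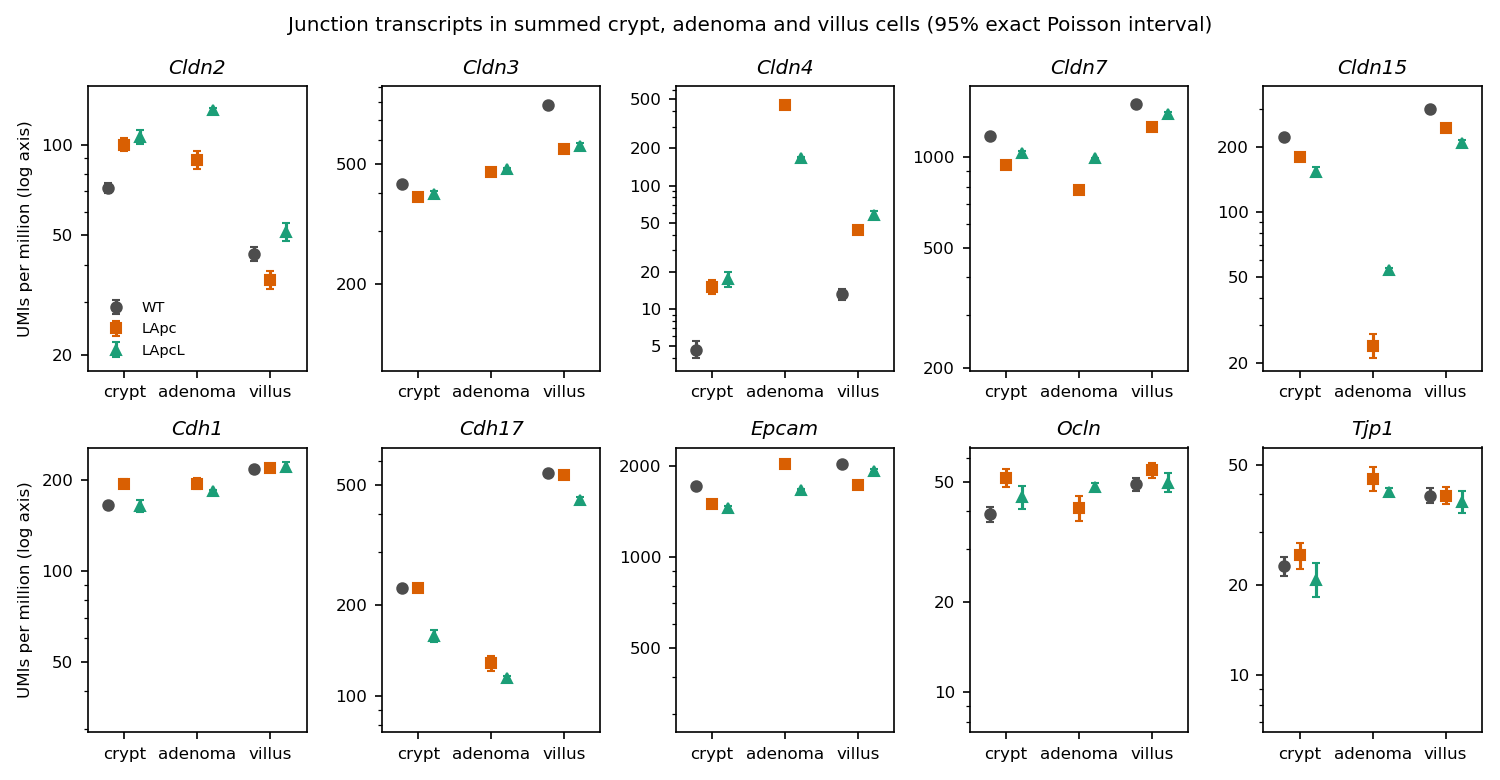
CPM on a log axis for each of the 10 genes (panels) in summed crypt, adenoma and villus cells, with 1 marker per library and bars for the 95% exact Poisson interval. *Cldn4* is highest and *Cldn15* lowest in adenoma cells (446 and 23.9 CPM in *LApc*), *Cldn2* is lowest in villus cells, and *Cdh1* and *Ocln* are nearly flat.

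Villus cells were then compared with crypt cells of the same library, which asks how the junction genes follow normal differentiation. A gene was called when its ratio passed 1.5-fold and it reached 20 CPM in either class. In WT, 3 of the 9 genes at that level were higher in villus cells and 1 was lower, where 24.8% of 5746 genes tested were higher and 30.1% were lower. In *LApc* 3 of 10 were higher and 1 was lower (24.5% and 33.3% of all genes), and in *LApcL* 3 and 1 (25.4% and 24.8%). The median log2 ratio of the 10 genes was 0.43 in *LApc* and 0.44 in *LApcL*, against -0.14 and -0.03 over all genes, and that of the 9 in WT was 0.40 against -0.09.

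*Cdh17* was higher in villus cells of every library, 2.41-fold in WT, 2.36-fold in *LApc* and 2.83-fold in *LApcL*. *Tjp1* was 1.72-, 1.58- and 1.81-fold higher in villus cells. *Cldn4* was 2.89-fold higher in *LApc* and 3.32-fold higher in *LApcL*, and in WT it was under 20 CPM in both classes. *Cldn3* passed the threshold in WT with 1.83-fold and stood at 1.44- and 1.45-fold in the other libraries. *Cldn2* was the one gene that was lower in villus cells, 1.66-fold in WT, 2.81-fold in *LApc* and 2.06-fold in *LApcL*. *Cldn7*, *Cldn15*, *Cdh1*, *Epcam* and *Ocln* were within 1.5-fold in each library. TMM scaling, which places no change at -0.20 (WT), -0.30 (*LApc*) and -0.11 (*LApcL*) on the log2 scale, took *Cldn2* in WT out of the calls and added *Cldn15* and *Cdh1* there. It raised the count in *LApc* from 4 to 7 by adding *Cldn3*, *Cldn7* and *Cldn15*, and it added *Cldn3* in *LApcL*. With adenoma cells set by 2 transcripts, 199 and 832 cells of the adenoma subclusters count as crypt, and *Cldn4* in villus over crypt turned to -0.40 in *LApc* and -1.20 in *LApcL*. *Tjp1* then stood at 0.57 in *LApc* and 0.41 in *LApcL*, both under the threshold. It also lost its call in WT and *LApc* when ribosomal protein and mitochondrial genes were left out of the totals, and in *LApc* with classes by marker score (0.54) or cells thinned to 3000 UMIs (0.55). Of all genes, TMM scaling called 31.1% higher and 23.0% lower in WT and 34.1% and 23.0% in *LApc*, and totals without ribosomal protein and mitochondrial genes called 17.0% and 42.0% in WT, 16.6% and 45.9% in *LApc* and 16.9% and 38.1% in *LApcL*.

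Further junction genes were taken as 7 lists. Of the tight junction scaffold and membrane partners, 6 of 11 (WT), 7 of 13 (*LApc*) and 6 of 12 (*LApcL*) were higher in villus cells. *F11r*, which encodes the junctional adhesion molecule JAM-A, stood at 137 against 56.1 CPM in WT, and *Cxadr*, the coxsackievirus receptor, at 76.4 against 32.2 CPM. *Prkci*, a polarity kinase, was the 1 gene of this list counted as lower, in *LApc* (12.8 against 23.1 CPM). It stood at 12.2 against 19.5 CPM in WT, under the 20 CPM minimum, and at 18.4 against 24.6 CPM in *LApcL*. Among desmosome genes 4 of 7 were higher in each library, with *Dsc2*, a desmocollin, at 72.4 against 36.0 CPM and *Perp* at 162 against 92.7 CPM in *LApcL*. Of the adherens junction genes, 3, 3 and 4 of 7 were higher and none was lower, with *Pvrl2*, a nectin, at 107 against 59.7 CPM and *Ctnnd1*, which encodes p120-catenin, at 109 against 61.3 CPM in WT. *Cldn23*, the one other claudin of 16 in the file that reached 20 CPM here, stood at 28.6, 31.6 and 26.7 CPM in villus cells and 7.30 to 9.65 CPM in crypt cells. Among the 5 matrix adhesion genes at 20 CPM, the integrin genes *Itga3* and *Itgb4* were higher in each library. A further one, *Itga6*, was lower in WT (61.0 against 119 CPM) and *LApc* (88.7 against 143 CPM). *Cd44*, which forms complexes with EpCAM and claudin-7, was at 3.04 and 3.79 CPM in villus cells of WT and *LApc* and 24.1 CPM in those of *LApcL*, under the crypt level of 27.6, 48.0 and 60.0 CPM in each.

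Within the villus, cells of each library were ranked by the share of their UMIs in 7 villus tip genes and cut into 3 equal parts (lower, middle and upper). The share is graded, and 48 to 183 cells of a library lay within 10% of a border. The middle to upper border lay at 0.238% of UMIs in WT, 0.970% in *LApc* and 0.304% in *LApcL*. Parts of the same name are thus not matched in tip gene share between libraries. In WT, 1 of the 10 genes was higher in the upper than in the lower part and 2 were lower (18.8% and 23.6% of all genes). In *LApc* 2 were higher and 2 lower (25.4% and 33.4%), and in *LApcL* 4 were higher and 0 lower (28.8% and 26.7%).

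Ileal genes moved with the ranking: *Fabp6* and *Slc10a2* summed to 18818, 27248 and 3700 CPM from the lower to the upper part of WT, to 7162, 5929 and 683 CPM in *LApc* and to 2001, 6525 and 1800 CPM in *LApcL*. Villus cells fell into an *Apoa4*-led and a *Fabp6*-led cluster, and *Cldn4* stood at 39.0 against 4.67 CPM in them in WT, 117 against 9.39 CPM in *LApc* and 153 against 21.8 CPM in *LApcL*. The part of region in the values along the villus was not tested.

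*Cldn4* was highest in the upper part of each library. It stood at 3.33 CPM in the lower, 5.92 CPM in the middle and 33.4 CPM in the upper part of WT. In *LApc* the levels were 7.68, 22 and 133 CPM, and in *LApcL* 16.6, 40.0 and 140 CPM. In the upper part the intervals of *LApc* (123 to 143) and *LApcL* (129 to 152) overlapped, and both were above WT. *Cldn3* was lower in the upper than in the lower part, 563 against 884 CPM in WT, 326 against 662 CPM in *LApc* and 462 against 594 CPM in *LApcL*. Its neighbour *Cldn4* thus had the opposite course in the same cells. Over 23 sums of a library and class, the Pearson correlation of *Cldn3* and *Cldn4* in log2(CPM + 10) was 0.05, where the sums share their libraries and depth.

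*Cldn2* separated the libraries along the villus. It stood at 63.7, 45.8 and 16.2 CPM from the lower to the upper part of WT and at 56.3, 28.2 and 12.1 CPM in *LApc*. In *LApcL* it stood at 54.3, 49.7 and 49.7 CPM, with an upper over lower log2 ratio of -0.13 (-0.39 to 0.14), against -1.98 (-2.25 to -1.71) in WT and -2.22 (-2.61 to -1.85) in *LApc*. The upper part of *LApcL* was thus above that of both other libraries while in the lower part the interval of *LApcL* (48.3 to 60.8) overlapped those of WT (58.9 to 68.7) and *LApc* (51.5 to 61.4). Adenoma transcripts rose along the villus of *LApcL*, at 66.9, 99.5 and 160 CPM from the lower to the upper part, and reached at most 20.2 CPM in any part of the others. In *LApcL* cells without any adenoma transcript, *Cldn2* stood at 47.3, 44.1 and 36.0 CPM, and the upper part (28.3 to 45.2) was still above that of WT (15.9 CPM) and *LApc* (12.2 CPM) so chosen. Depth moved too: the median UMI count was 8732 in the lower and 6382 in the upper part of *LApcL*, 10035 and 8773 in WT, and 7267 and 4436 in *LApc*. Wnt/TA markers in the upper part summed to 866 CPM (WT), 510 CPM (*LApc*) and 1321 CPM (*LApcL*), and the borders of the parts differed between libraries. The part of these in the result was not tested.

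*Cdh1*, *Cdh17* and *Ocln* passed the threshold with *Cldn4* in the upper part of *LApcL*. *Cdh1* went from 181 to 277 CPM there, a log2 ratio of 0.61 (0.49 to 0.74), while WT (216 and 206 CPM) and *LApc* (213 and 237 CPM) changed by at most 0.15. *Ocln* went from 37.1 to 64.6 CPM in *LApcL* and stayed between 47.9 and 58.7 CPM at both ends in the others. *Cdh17* stood at 461 and 616 CPM in the lower and upper part of WT, within 1.5-fold, and passed the threshold in *LApc* (430 and 670 CPM) and *LApcL* (344 and 618 CPM), and the upper parts were closer to each other than the lower ones. *Tjp1* stood at 43.3 and 29.8 CPM in WT, 45.1 and 32.2 CPM in *LApc* and 39.2 and 31.3 CPM in *LApcL*, within 1.5-fold in each.

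**Figure D2:**
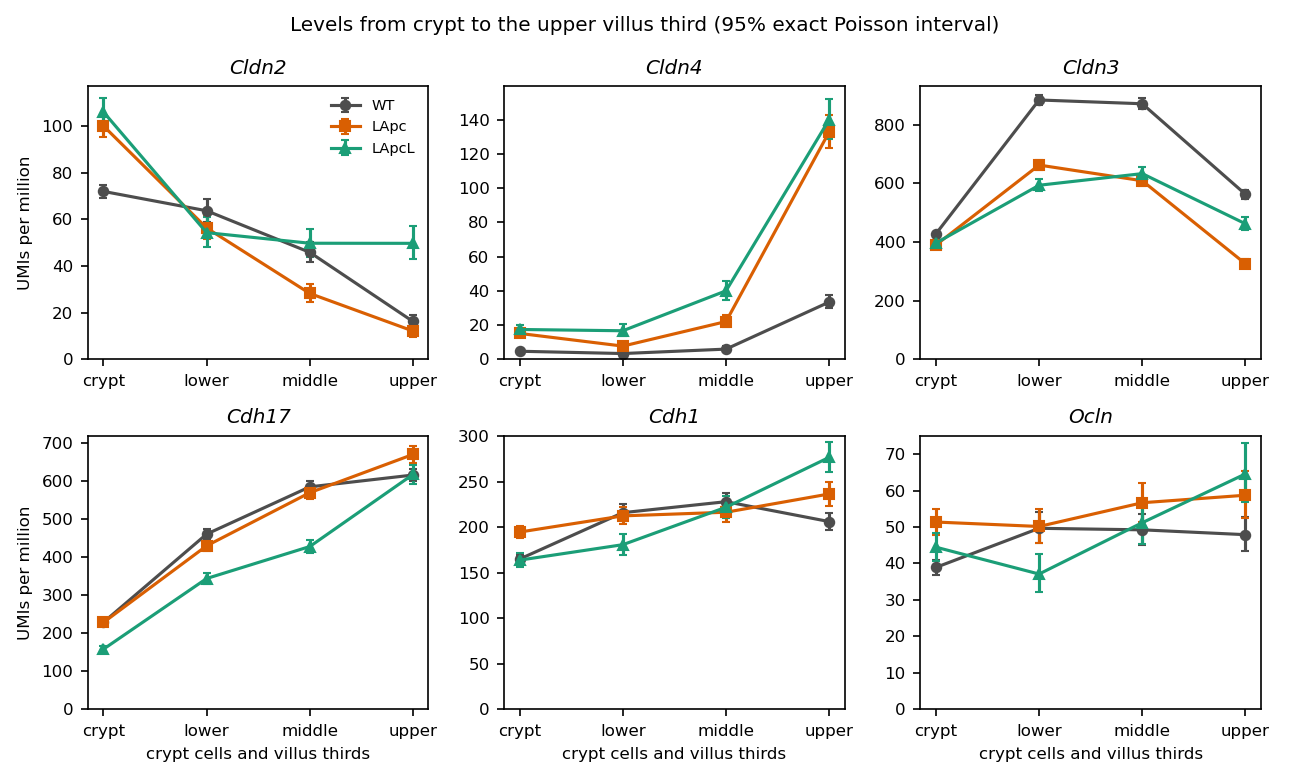
CPM for 6 genes in crypt cells and in the lower, middle and upper parts of villus cells ranked by tip gene share, with lines joining the points of a library and bars for the 95% exact Poisson interval. *Cldn2* reaches 16.2 CPM (WT) and 12.1 CPM (*LApc*) in the upper part but 49.7 CPM in *LApcL*, and *Cldn4* rises in the upper part of all 3 libraries.

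Adenoma cells were compared with crypt cells of the same library, to see how junction genes differ between adenoma and crypt. In *LApc* 2 of the 10 genes were higher and 2 lower (26.1% and 11.1% of 6243 genes tested), and in *LApcL* 2 were higher and 1 lower (16.8% and 7.25% of 5598). The median log2 ratio of the 10 was -0.08 and 0.18, against 0.20 and 0.19 over all genes. *Cldn4* was 29.6-fold higher in *LApc*, a log2 ratio of 4.89 (4.70 to 5.08), and 9.64-fold higher in *LApcL*, a log2 ratio of 3.27 (3.07 to 3.48). *Cldn15* fell by 2.90 on the log2 scale in *LApc* and by 1.52 in *LApcL*. *Tjp1* was 1.80- and 1.96-fold higher. *Cdh17* was 1.78-fold lower in *LApc* and 1.38-fold lower in *LApcL*, within the threshold. *Cldn2*, *Cldn3*, *Cldn7*, *Cdh1*, *Epcam* and *Ocln* were within 1.5-fold in both.

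*Cdh1* stood at 195 CPM in both classes of *LApc*, with a log2 ratio of 0.00 (-0.08 to 0.08). TMM scaling placed no change at 0.28 (*LApc*) and 0.16 (*LApcL*), where *Tjp1* lost its call and *Ocln* gained one as lower in *LApc*, and *Cdh17* passed the threshold as lower in *LApcL*. It called 16.4% of all genes higher and 20.8% lower in *LApc* and 11.2% and 9.97% in *LApcL*, and totals without ribosomal protein and mitochondrial genes called 19.1% and 17.1%, and 11.9% and 10.4%. Immune markers summed to 243 CPM in *LApc* adenoma cells and 17.0 CPM in its crypt cells, all 13 of them above 0 in both, and to 6.95 and 2.14 CPM in *LApcL*. Without cells that held an immune marker, every call of these comparisons held. Where Wnt/TA-like cells were instead called adenoma when they held 2 adenoma transcripts, 832 cells of the *LApcL* adenoma subclusters counted as crypt, and *Cldn4* in adenoma over crypt stood at 0.24 and *Tjp1* at 0.52 on the log2 scale there, both under the threshold. In *LApc*, where 199 cells did, *Cldn4* stood at 2.85. Without the shallow subclusters 7 and 8 *Cldn4* stood at 5.43 in *LApc*.

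**Figure D3:**
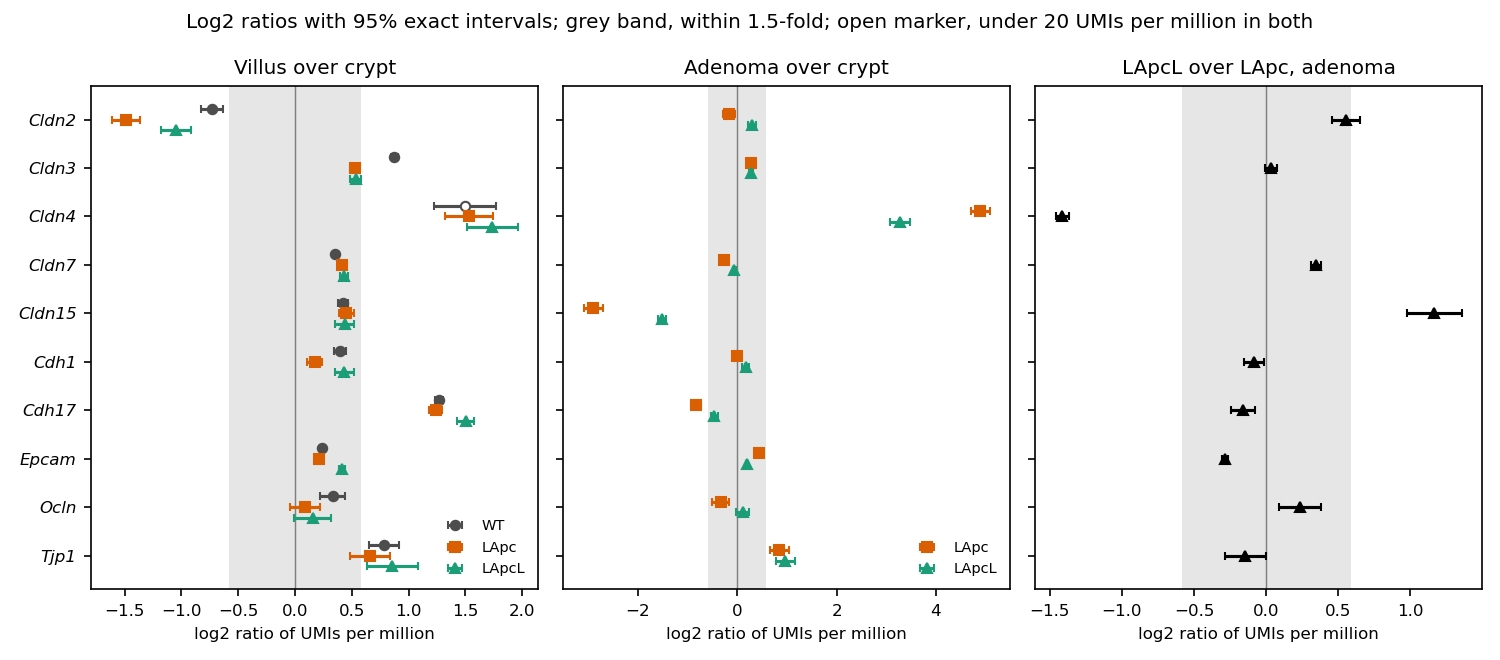
Log2 ratios of CPM with 95% exact intervals for villus over crypt cells, adenoma over crypt cells, and *LApcL* over *LApc* in adenoma cells, with a grey band for ratios within 1.5-fold and an open marker where both classes were under 20 CPM. *Cldn4* lies at 4.89 and 3.27 and *Cldn15* at -2.90 and -1.52 in adenoma over crypt, and *LApcL* adenoma cells are lower for *Cldn4* and higher for *Cldn15*.

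The companion lists were counted in the same comparison. Of the matrix adhesion genes, which hold cells to the basement membrane, 7 of 8 were higher in *LApc* and 3 of 4 in *LApcL*. *Lamb3*, a laminin chain, stood at 30.4 CPM in *LApc* adenoma cells against 7.35 CPM in crypt cells, and *Itgb1*, an integrin, stood at 155 against 74.5 CPM in *LApc* and 133 against 70.3 CPM in *LApcL*. Of the EpCAM and claudin-7 partners, 4 of 7 and 3 of 7 were higher and 1 was lower. *Cd9*, a tetraspanin, stood at 470 against 92.4 CPM in *LApc* and 308 against 109 CPM in *LApcL*. *Tspan8* was the lower one, 174 against 493 CPM and 166 against 435 CPM. Among the other claudins, *Cldn18*, a claudin of the stomach, stood at 41.5 CPM in *LApc* adenoma cells and 0.383 CPM in crypt cells.

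Of the tight junction partners, 6 of 13 were higher in *LApc* and 6 of 12 in *LApcL*, where 1, *Tjp3*, was lower. *F11r* stood at 215 CPM against 66.6 CPM in *LApc* and at 142 CPM against 55.1 CPM in *LApcL*. Of the adherens junction genes, 5 of 8 and 4 of 8 were higher, with *Ctnnb1*, which encodes beta-catenin, at 382 against 191 CPM and 280 against 178 CPM. All 7 desmosome genes were within 1.5-fold in both libraries. Of the 7 transcription regulators at 20 CPM, 5 were lower in *LApc* and 3 in *LApcL*, and in both 1, *Klf4*, was higher. The lower ones in *LApcL*, *Cdx1*, *Hnf4a* and *Hnf4g*, which encode factors of intestinal and enterocyte identity, were lower in *LApc* too.

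*LApcL* was compared with *LApc* in adenoma cells, which asks how junction genes differ when *Lef1* is floxed as well as *Apc*. Of the 10 genes 1 was higher and 1 lower, where 3.37% of 5995 genes tested were higher and 13.7% were lower. *Cldn15* was 2.24-fold higher in *LApcL*, a log2 ratio of 1.16 (0.98 to 1.35), and *Cldn4* fell by 1.41 on the log2 scale (-1.46 to -1.37). Both were thus nearer to the crypt level in *LApcL*. *Cldn2* was 1.47-fold higher, just inside the threshold. The remaining 7 were within 1.5-fold. Their log2 ratios ranged from -0.28 for *Epcam* to 0.34 for *Cldn7*. TMM scaling placed no change at -0.24, called 11.3% of all genes higher and 8.87% lower, and added *Cldn2* and *Cldn7* as higher, which made 4 calls. Totals without ribosomal protein and mitochondrial genes called 5.91% higher and 11.4% lower and added *Cldn2*.

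Of the companion lists, 4 of 8 matrix adhesion genes, both other claudins at 20 CPM and 3 of 7 EpCAM and claudin-7 partners were lower in *LApcL*. *Itga3* stood at 14.4 against 33.4 CPM, *Lamb3* at 13.4 against 30.4 CPM, *Cldn18* at 9.80 against 41.5 CPM and the protease gene *St14* at 79.1 against 137 CPM. *Cd44* was the 1 partner that was higher, 149 against 94.1 CPM. Of 6 regulators 2 were higher, *Cdx1* (110 against 61.6 CPM) and *Hnf4a* (92.0 against 59.1 CPM), and 2 were lower, *Klf4* and *Elf3*. *F11r* was the 1 of 13 tight junction partners that was lower, and the adherens junction and desmosome genes were within 1.5-fold.

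The subclusters of adenoma cells were not the same mix in the libraries. Subcluster 4, led by *Wfdc18*, *Ly6d*, *Clu* and *Lcn2*, made up 45.4% of adenoma cells in *LApc* and 15.8% in *LApcL*, and it held the highest *Cldn4*, 724 and 324 CPM. *Cldn4* was lower in *LApcL* within subclusters 1 (105 against 249 CPM), 2 (189 against 294 CPM), 3 (152 against 274 CPM) and 4. *Cldn15* was higher in *LApcL* within the same 4, from 32.2 against 14.0 CPM in subcluster 1 to 75.1 against 22.2 CPM in subcluster 4. The shallow subcluster 7, with 84 and 298 cells, was led by the pancreatic enzyme genes *Ctrb1*, *Cela3b* and *Prss2* and also by *Ccl5* and *Gzma* of immune cells. It went the other way, with 145 against 84.7 CPM of *Cldn4* and 80.3 against 104 CPM of *Cldn15*, the latter within its interval (-0.91 to 0.18 on the log2 scale). With each subcluster given the same weight in both libraries, its mean UMI share, the log2 ratio was -0.99 for *Cldn4*, 1.36 for *Cldn15* and 0.58 for *Cldn2*. *Cldn2* was higher in *LApcL* by 1.40 on the log2 scale in subcluster 3, 0.74 in subcluster 1 and 0.67 in subcluster 4, while its interval in subcluster 2 held 0 (-0.08 to 0.26).

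**Figure D4:**
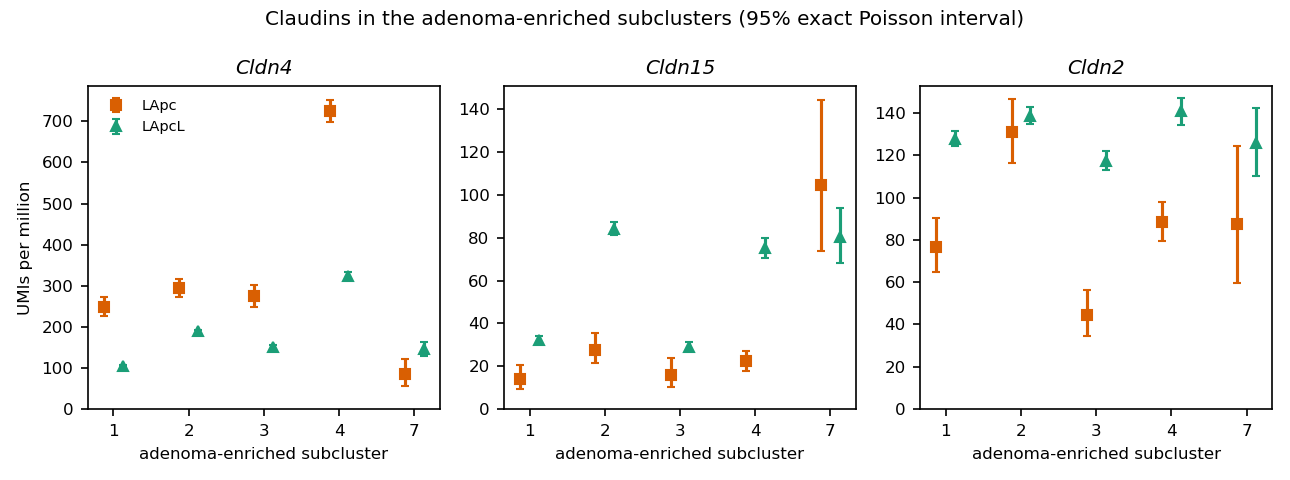
CPM of *Cldn4*, *Cldn15* and *Cldn2* in the 5 adenoma-enriched subclusters of *LApc* and *LApcL*, with bars for the 95% exact Poisson interval. *LApc* is above *LApcL* for *Cldn4* and below it for *Cldn15* in subclusters 1 to 4, and in subcluster 7 *LApcL* is above for *Cldn4* (145 against 84.7 CPM).

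Crypt and villus cells of the libraries labelled Apc fl/fl, which also held adenoma cells, were compared with those of WT. At least 1 adenoma transcript was found in 588 of 1200 crypt cells of *LApcL*, 291 of 2241 of *LApc* and 323 of 3061 of WT. The comparisons of *LApc* and *LApcL* share the WT library. In crypt cells 0 of the 9 genes at 20 CPM passed 1.5-fold in either library, where 4.15% of all genes were higher and 2.32% lower in *LApc*, and 2.02% and 3.62% in *LApcL*. *Cldn2* came nearest, 1.39-fold higher in *LApc* and 1.47-fold in *LApcL*, followed by *Cdh17*, 1.45-fold lower in *LApcL*, and *Cldn15*, 1.44-fold lower in *LApcL*. *Cldn4* was under 20 CPM in crypt cells of all 3 libraries.

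In villus cells, *Cldn4* was the 1 gene of 10 that passed the threshold, 3.31-fold higher in *LApc* and 4.39-fold in *LApcL*. In these comparisons 5.36% of all genes were higher and 4.57% lower in *LApc*, and 4.97% and 4.02% in *LApcL*. *Cldn3* was 1.40- and 1.37-fold lower and *Cldn15* 1.22- and 1.43-fold lower. The remaining 7 were within 1.23-fold. Without the villus cells that held any adenoma transcript, 732 of 1735 cells in *LApcL* and 280 of 3573 in *LApc*, the log2 ratio of *Cldn4* was 1.68 in *LApc* and 1.79 in *LApcL*, against 1.73 and 2.13 with them. The ileal genes *Fabp6* and *Slc10a2* summed to 17270 CPM in WT villus cells and to 5135 and 3613 CPM in *LApc* and *LApcL*. The villus cells of the libraries thus also differ in ileal gene level. The part of region in these values was not tested. TMM scaling changed the share of all genes called to 3.03% higher and 3.42% lower in *LApc* crypt cells and to 3.40% and 5.90% in *LApcL* villus cells, where *Cldn15* passed as lower. Totals without ribosomal protein and mitochondrial genes gave 4.41% and 2.55% in *LApcL* crypt cells and 8.52% and 2.74% in *LApcL* villus cells.

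Of the companion lists, *Cd44* was higher in crypt cells of both libraries, 48.0 and 60.0 CPM against 27.6 CPM, and the regulator gene *Elf3* was lower in those of *LApcL*, 168 against 256 CPM. In villus cells *Klf4* was higher in both, 136 and 109 CPM against 68.8 CPM. In villus cells of *LApc* *Pard6b*, a polarity gene, was higher (22.2 against 11.2 CPM) and *Cd9* lower (39.4 against 61.4 CPM), and in those of *LApcL* *Itga6* (93 against 61.0 CPM) and *Cd44* (24.1 against 3.04 CPM) were higher. All genes of the adherens junction and desmosome lists at 20 CPM were within 1.5-fold of WT in both classes and both libraries.

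The share of cells with a UMI was counted after each cell had been thinned to 3000 UMIs. *Cldn4* was found in 1.47% of WT crypt cells (95% exact binomial interval 1.07 to 1.96), 4.5% in *LApc* and 5.27% in *LApcL*, and in 43.5% (40.7 to 46.3) of *LApc* and 29.1% (28.2 to 30.0) of *LApcL* adenoma cells. *Cldn15* was found in 47.0%, 39.9% and 36.4% of crypt cells, and in 6.33% and 14.9% of adenoma cells. Without thinning the *Cldn4* shares of adenoma cells were 61.5% and 57.4%, at medians of 7365 and 11352 UMIs. Among barcodes with at least 3 immune markers, which should lack these transcripts, *LApc* had 23 deep enough, with a median of 3651 UMIs before thinning. *Cldn4* was found in 2 and *Cldn15* in 2 of the 23, 8.70% (1.07 to 28.0), and *Epcam* in 18. These barcodes carry epithelial RNA and are no clean measure of free RNA. They were counted in *LApc* alone. Within *LApc*, the *Cldn4* shares of crypt cells and villus cells (5.37%) and the *Cldn15* share of adenoma cells lie below theirs and are not told apart from background. At an interval of 1.07 to 28.0, the 23 barcodes are too few to place shares of this size above background or at it. The *Cldn4* shares of crypt cells in WT and *LApcL* and of WT villus cells (2.82%) lie below the same value, and that of *LApcL* villus cells was 11.3%. That value is from *LApc*, so WT and *LApcL* are not compared with a background of their own.

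The genes whose pattern over the 23 sums was most like that of a member were taken from 2365 genes at a mean of 50 CPM or more. Those of *Cldn4* were *S100a6* (Pearson correlation 0.86 in log2(CPM + 10)), *Junb* (0.85) and *Ctsl* (0.82), and those of *Cldn2* were *Hes1* (0.86), *Nsun2* (0.86) and *Npm1* (0.85). Those of *Cldn15* were *Pigr* (0.96), *Chpt1* (0.95) and *Abhd11os* (0.92). *Cldn7* was most like *Bcap31*, *Rer1* and *Cox6b1* (0.98 each) and correlated with *Epcam* at 0.97, and *Cldn4* and *Cldn15* at -0.29. These are descriptions over sums that share libraries, depth and composition.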

How the data were processed

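Droplet-based 3′ single-cell RNA sequencing of sorted EpCAM-positive small-intestinal cells was analysed, with 1 library each of WT, *LApc* and *LApcL*. The deposited matrices hold UMI counts per gene and cell barcode, which the authors made with Cell Ranger 2.1.1 on mm10 (GRCm38) and did not normalise. Reagent kit v2 or v3 was used, and which library had which is not given in the sources used here. The 10 genes and the companion lists were chosen with earlier results of these data known.

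Barcodes were kept inside the outer 1% of genes detected at each end and at 20% or less mitochondrial UMIs. The highest Scrublet scores were removed as doublets at 0.8% per 1000 barcodes, since the automatic threshold marked 0 in *LApc*. Libraries were integrated in Seurat 5.3.0 (R 4.3.3) on 964 features without the 95 genes of the lists, with 20 dimensions and resolution 0.2, and clusters were named by fixed markers. Wnt/TA-like cells were corrected by mutual nearest neighbours and clustered again with leidenalg 0.10.2 at resolution 0.4 (scanpy 1.11.5, Python 3.11.15). Subclusters with under 10% WT cells at equal library weight were taken as adenoma.

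UMIs were summed per library and class and divided by the class total (CPM), with 95% exact Poisson intervals. Ratios had exact conditional binomial intervals (scipy 1.17.1), and the ratio script was tested on simulated data. With 1 library a genotype no test over samples exists and no p-value is given. Depth limited the rare transcripts most: *Cldn4* in WT crypt cells rests on 162 UMIs in 3061 cells.

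The rule for named genes took every member, the 3 genes of each list at 20 CPM or more with the largest ratios in a comparison, and the 3 genes most correlated with a member at a mean of 50 CPM or more. Only some of the list genes so taken are printed, and these, as well as genes outside the rule such as *Prkci* and *Tjp3*, were picked after their values were seen. A total of 13 alternatives were run, for classes, doublets, the mitochondrial limit, scaling, weighting and depth, of which 4 were added after the data were seen. Promoter windows came from RefSeq (GRCm38.p6) and gene positions from GENCODE. Some genes of the companion lists are not reported here by name.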

Additional observations from a re-analysis of the deposited data

Results flagged for a closer look

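*Cldn2* went in opposite directions in the libraries labelled *LApc* and *LApcL* in 2 of the 4 comparisons made in both libraries. Adenoma over crypt cells gave a log2 ratio of -0.168 in *LApc* and 0.301 in *LApcL*. Villus cells over those of WT gave -0.283 in *LApc* and 0.245 in *LApcL*, and the last was -0.01 without villus cells that held an adenoma transcript. Each ratio was within 1.5-fold, and with 1 library a genotype the difference was not tested.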

How the results depend on the processing

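Over the 13 alternatives, 264 of 276 calls held, 29 were gained and 74 log2 ratios changed sign. Clustering at resolution 0.4, removing more doublets and the 3 exclusions of cells chosen after the data were seen kept all 23 calls and gained 0. TMM scaling gave 7 genes in place of 4 for villus over crypt in *LApc*, 4 in place of 2 for *LApcL* over *LApc* in adenoma cells, and 2 in place of 1 for *LApcL* over WT in villus cells. Adenoma cells set by 2 transcripts gave 2 in place of 4 for villus over crypt in *LApc*, 1 in place of 0 for *LApc* over WT crypt cells and 3 in place of 0 for *LApcL* over WT crypt cells. By construction, 199 and 832 cells of adenoma subclusters then count as crypt, and *Cldn4* in villus over crypt turned to -0.400 in *LApc* and -1.198 in *LApcL*, while *Cldn4* and *Tjp1* lost their calls in adenoma over crypt of *LApcL*. Without ribosomal protein and mitochondrial genes the crypt counts over WT were 1 (*LApc*) and 2 (*LApcL*), the mean over cells gave 1 in *LApc*, and thinning to 3000 UMIs gave 1 in *LApcL*, where the cause was not tested. Among the alternatives, shares of all genes called are given for TMM scaling and for totals without ribosomal protein and mitochondrial genes only. Counts under the other alternatives have no such share beside them and cannot be set against all genes. The minimum of 20 CPM applied to the 10 genes and to the shares over all genes alike. *Cldn4*, under that minimum, was past 1.5-fold in villus over crypt of WT (2.81-fold) and in crypt cells of *LApc* (3.23-fold) and *LApcL* (3.72-fold) over WT. It would be counted in each if the minimum were left out. No paired analysis was possible because each genotype is 1 library. Mouse and library cannot be told apart from genotype, nor can day for *LApc*. Which kit each library had is not known, so kit cannot be set apart from genotype either.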

Other observations

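The claudins also differed between the other epithelial classes. In enteroendocrine-like cells, *Cldn4* stood at 64.6 CPM (WT), 158 CPM (*LApc*) and 185 CPM (*LApcL*), and *Cldn15* at 151, 56.7 and 43.2 CPM. In goblet-like cells *Cldn4* stood at 37.6, 125 and 94 CPM. In tuft-like cells *Cldn4* stood at 9.94, 20.6 and 63.4 CPM, *Cldn15* at 89.5, 38.3 and 35.2 CPM and *Cldn3* at 864, 886 and 879 CPM. WT was thus the lowest of the 3 libraries for *Cldn4* and the highest for *Cldn15* where both are given. The tuft-like values of *LApc* rest on 7 UMIs of *Cldn4* and 13 of *Cldn15* in 67 cells. Its *Cldn4* interval there (8.29 to 42.5) overlapped that of WT (6.30 to 14.9), so that order is not resolved.

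In Paneth-like cells *Epcam* stood at 187, 290 and 350 CPM but at 8.47, 4.71 and 7.46 UMIs a cell, against 19.5, 10.4 and 14.1 UMIs in crypt cells. Paneth markers held 424493, 391995 and 391432 CPM of their UMIs, which lowers the CPM of every other gene in these cells.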
